A study of Mus musculus with 9 samples.

Results

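The cell cycle and mitosis genes described here are 40 genes chosen by name, and all 40 were found in a matrix of 27179 genes. The libraries hold RNA of cells isolated from the fibrous layer around a mouse tibial implant 2 weeks after implantation. A cell sorter kept lineage-negative cells with tdTomato, a red fluorescent protein that stays on wherever tamoxifen-activated Cre recombinase, driven by the leptin receptor gene Lepr, has acted. The 4 control libraries are from Lepr-CreERT;Tdtomato littermates. The 5 knockout (cKO) libraries are from Lepr-CreERT;Tdtomato;Grem1fl/fl mice, in which Cre removes Grem1, the gene of a secreted antagonist of bone morphogenetic proteins. Cre, reporter and tamoxifen were thus shared by both groups. Neither the age of the mice nor the deleted part of Grem1 is in the labels, and only cells that express Lepr can recombine. Separate animals are not stated either, so p-values measure the spread between libraries, which may be technical.

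Dividing cells pass through a fixed order of phases. In late G1, cyclin E and the E2F transcription factors open the way to DNA replication, which starts at origins licensed by Cdc6, Cdt1 and the MCM helicase. In G2, cyclin B and Cdk1 drive entry into mitosis, and the transcription factors MYBL2 and FOXM1 switch on a later wave of genes for the spindle, the kinetochore and cell division. Stromal cells of the adult marrow that express Lepr are known to divide rarely, and to divide more after injury.

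Replication and mitosis genes are known to differ in the short motifs of their promoters, and 5 promoters are printed to show both layouts. RefSeq windows (build GRCm38.p6) from 250 bases before to 50 bases after a start site were found for 33 of the 40 genes, as 35 windows. Aurkb, Ccna2, Ccne2, Foxm1, Kif20a, Mcm4 and Tpx2 had none. The mitotic layout joins a CHR element, TTTGAA, to CCAAT boxes, the site of the factor NF-Y. The replication layout holds an E2F-like word, which is TTGGCGC in its usual form. TTCGCGC was accepted as another form. TTCCCGC was accepted as well. TTGCCGC completed the forms searched. Both strands were searched, and words on opposite strands can overlap. A CHR was found in 15 of the 20 mitosis genes with a window and in 1 of 10 replication genes, against 17.9% of all 32851 windows. CCAAT was found in 18 and 7 of them, against 37.4%, and an E2F-like word in 4 and 7, against 9.57%. A match describes letters only. Top2a (chr11:99024200-99024439, minus strand) and Ube2c (chr2:164769679-164769928, plus strand) held the most CHR and CCAAT matches. Mcm6 (chr1:128359706-128359955, minus strand) and Mcm5 (chr8:75109259-75109467, plus strand) stand for replication, and Ccnb2 (chr9:70421545-70421804, minus strand) was added after its values were seen. Capitals mark CHR and CCAAT in Top2a, Ube2c and Ccnb2, and E2F-like words in Mcm6 and Mcm5. The stretches stop before the annotated transcript, except for 10 bases in Ccnb2, and 1 E2F-like word of Mcm6 within the transcript is not shown.
Top2a: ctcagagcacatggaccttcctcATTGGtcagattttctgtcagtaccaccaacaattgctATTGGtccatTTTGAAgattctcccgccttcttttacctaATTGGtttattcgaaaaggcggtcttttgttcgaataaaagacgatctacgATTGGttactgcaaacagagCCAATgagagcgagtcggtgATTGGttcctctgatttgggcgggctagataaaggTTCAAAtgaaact
Ube2c: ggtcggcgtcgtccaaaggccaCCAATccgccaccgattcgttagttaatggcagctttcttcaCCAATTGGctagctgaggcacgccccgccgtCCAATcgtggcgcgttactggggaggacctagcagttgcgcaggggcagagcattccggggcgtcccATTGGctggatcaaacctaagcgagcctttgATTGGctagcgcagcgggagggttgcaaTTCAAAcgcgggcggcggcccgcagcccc
Ccnb2: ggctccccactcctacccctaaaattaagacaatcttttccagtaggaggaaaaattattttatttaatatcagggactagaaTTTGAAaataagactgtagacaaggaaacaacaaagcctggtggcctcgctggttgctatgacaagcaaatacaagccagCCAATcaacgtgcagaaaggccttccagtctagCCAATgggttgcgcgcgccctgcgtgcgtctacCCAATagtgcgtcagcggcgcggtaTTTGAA
Mcm6: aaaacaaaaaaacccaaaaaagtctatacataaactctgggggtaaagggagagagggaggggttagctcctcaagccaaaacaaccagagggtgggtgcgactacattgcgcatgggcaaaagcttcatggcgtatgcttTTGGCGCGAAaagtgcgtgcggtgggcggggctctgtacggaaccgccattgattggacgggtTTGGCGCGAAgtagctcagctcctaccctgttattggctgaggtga
Mcm5: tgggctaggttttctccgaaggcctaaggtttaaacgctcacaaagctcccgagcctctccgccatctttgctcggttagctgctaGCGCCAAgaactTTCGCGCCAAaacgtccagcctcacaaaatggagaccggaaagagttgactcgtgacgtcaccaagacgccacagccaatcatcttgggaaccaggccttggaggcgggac

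Grem1, the deleted gene, was checked first. Its normalized counts (counts per gene over a size factor for that library) were 736, 517, 676 and 356 in controls 1 to 4 against 83.2, 46.4, 125, 133 and 60.8 in knockouts 1 to 5, with no overlap. It fell (log2 difference -2.72, SE 0.43, limma adjusted p = 0.00781; exact two-sided permutation p = 0.00794 on the difference of mean log2 values, the smallest these group sizes allow). Recovered reads came to 44.8 to 53.4 M (megareads) for controls, 76.3 to 87.2 M for knockouts 1 to 4 and 43.5 M for knockout 5. All 7 markers of LEPR stroma were detected in every library. Lepr itself had 935 normalized counts in control 4 and 1347 in knockout 5, against 5379.9 or more in the other 7 libraries.

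None of the 40 cell cycle genes passed the test between knockout and control libraries, although all 40 had a log2 difference below 0. The test was limma on log2(normalized count + 1), and a gene passed at a Benjamini-Hochberg adjusted p under 0.05 over 15832 genes. All 40 entered it, with no value under 78.7 in any library. Of all genes tested, 7.48% passed, 2.87% as lower in knockouts. The median log2 difference of the 40 was -0.76, between -1.86 (Mki67) and -0.23 (Aurka), and that of all genes tested was -0.0039. At an unadjusted p under 0.05, 10 of the 40 were lower in limma, where 12.2% of all genes were. The same unadjusted count was 3 with edgeR (11.1% of all genes) and 5 with DESeq2 (11.9%). After adjustment neither tool passed any of the 40, where 4.96% and 16.5% of all genes passed. DESeq2 gave no p-value for 2 of the 40, Mki67 and Prc1. For each of the 40 the groups overlapped, where 4.6% of all genes had every knockout below every control. In bulk RNA, fewer dividing cells and less of each transcript per cell cannot be told apart.

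The knockout libraries differed widely among themselves. In knockout 3 all 40 genes had their lowest value of the 9 libraries, where 14.2% of all genes tested did. In knockout 5, 29 of the 40 had their highest value, where 12.5% did. Summed over the 40 genes, normalized counts were 86596, 131902, 110532 and 158451 for controls 1 to 4, then 72178, 70626, 34300.4, 81299 and 186688 for knockouts 1 to 5. Knockouts 1 to 4 thus lay below every control in that sum, and knockout 5 lay above every control. Relative to the control mean, the median gene stood at -0.78, -0.69, -2.26 and -0.78 on the log2 scale in knockouts 1 to 4 and at 0.68 in knockout 5. Among the controls it ranged from -0.45 (control 1) to 0.43 (control 4).

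**Figure D1:**
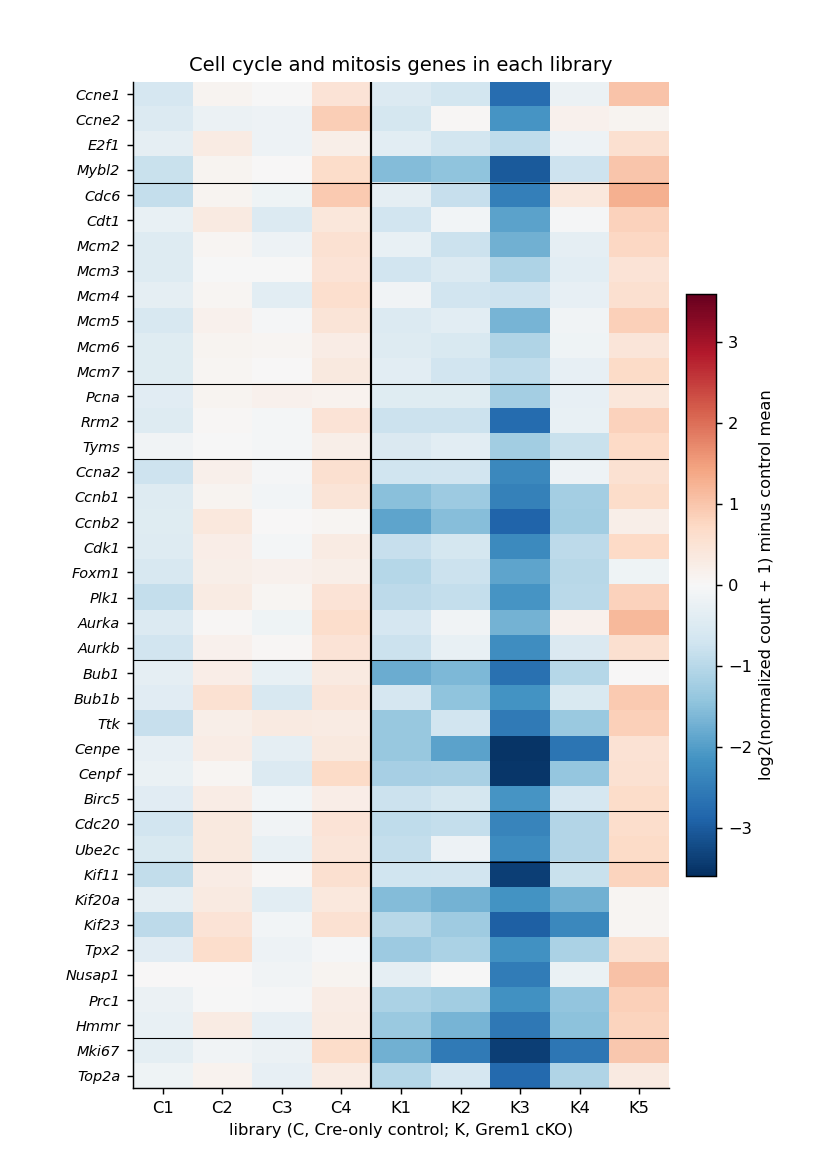
Rows are the 40 genes in order of role, columns are the 9 libraries (C, control; K, knockout), and colour is log2(normalized count + 1) minus the mean of the 4 controls. Column K3 is the darkest blue, with a median of -2.26, and column K5 is mostly red, with a median of 0.68.

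Whether genes passed turned on knockout 5. Without it, 19 of the 40 were lower in knockouts (limma, adjusted p under 0.05) and none was higher, where 10.1% of all genes passed as lower and 12.4% as higher. The median log2 difference was then -1.16, against 0.0069 over all genes. For 17 of the 40, knockouts 1 to 4 all lay below every control, as 12.3% of all genes did. Leaving out any other single library passed no gene, and without knockout 3 the median was -0.35. Knockout 5 had the highest value for 29 of the 40, so leaving it out must lower the knockout mean of those genes. Its Grem1 stood at 10.6% of the control mean, against 21.8% in knockout 3, so Grem1 gave no reason to leave it out. Knockout 5 was singled out by its values for these same genes. Adjusted p-values without knockout 5, here and below, therefore describe knockouts 1 to 4 and are not an independent test. With quality weights, which give less weight to libraries far from their group, 15 of the 40 passed as lower, where 11.5% of all genes did.

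Set alone against the 4 controls, knockout 5 lay above the control mean on the log2 scale for 39 of the 40 genes, where 52% of all genes did. The median was 0.68, against 0.023 over all genes. None passed in limma, where 0.524% of all genes did, and the lone library is assumed to vary like the controls. At an unadjusted p under 0.05 there were 3, where 9.49% of all genes were. Depth split the libraries likewise: knockout 5 had the depth of the controls, so depth and genotype cannot be told apart for knockouts 1 to 4. With all 9 libraries thinned to 43.5 M reads, no gene of the 40 passed and the median was -0.75. None had passed before thinning either, and the fit without knockout 5 was not repeated on thinned reads.

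**Figure D2:**
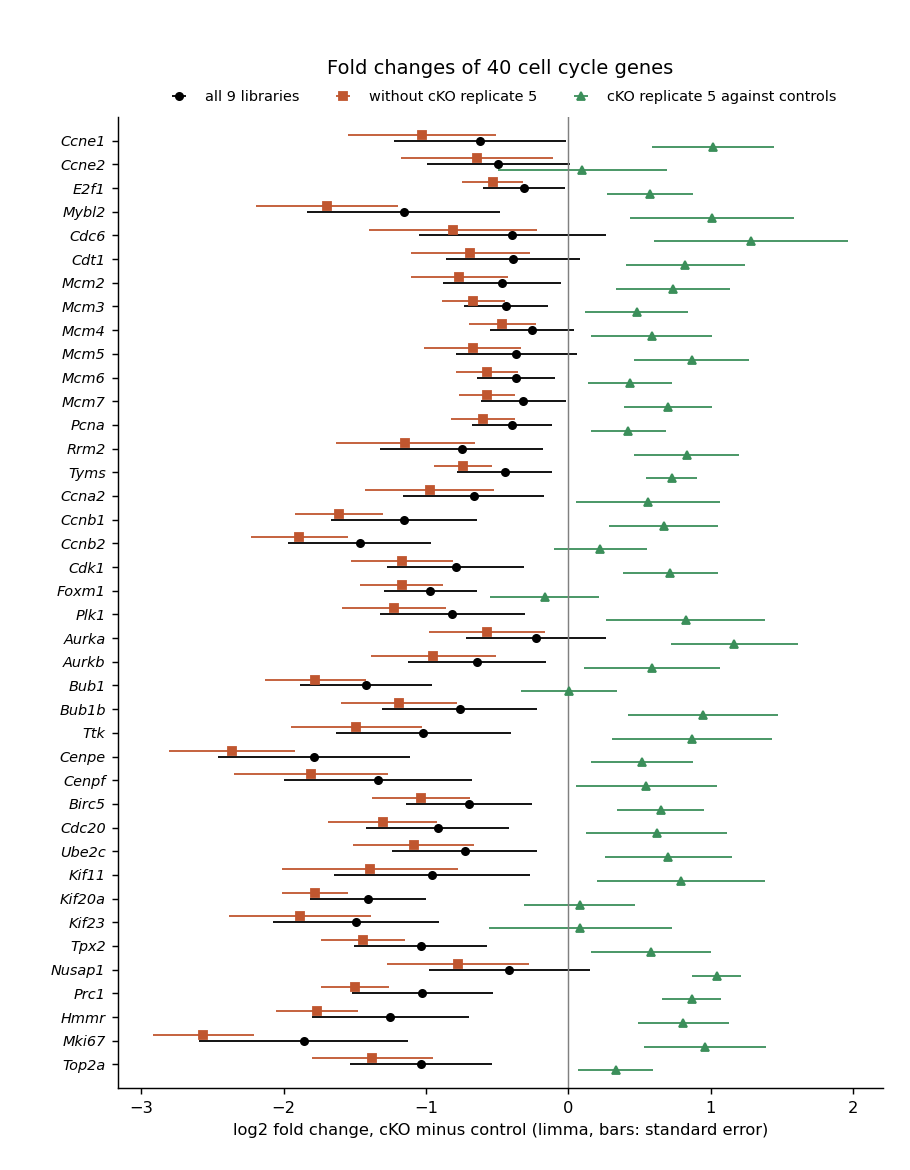
Points are limma log2 differences (knockout minus control) of the 40 genes with their standard errors, for all 9 libraries, without knockout 5, and for knockout 5 alone against the controls. All 40 lie below 0 with all libraries, and 39 of 40 lie above 0 for knockout 5 alone.

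At the G1/S transition, Ccne1, the gene of cyclin E1, a partner of Cdk2, had 1389, 2268, 2102 and 2988 normalized counts in controls against 1488, 1329, 317, 1820.1 and 4261 in knockouts. Knockout 3 lay below and knockout 5 above all controls (log2 difference -0.62, SE 0.60, limma adjusted p = 0.542). The log2 difference was -0.49 for Ccne2, the second cyclin E (limma adjusted p = 0.561), and -0.31 for E2f1, a transcription factor of S phase genes (limma adjusted p = 0.519). Mybl2, whose protein binds late cell cycle promoters, had 538, 1013, 955 and 1499 in controls against 315, 347, 115, 557 and 1889.6 in knockouts (log2 difference -1.16, SE 0.68, limma adjusted p = 0.302). Without knockout 5 it was 3.24-fold lower (limma adjusted p = 0.0404), and it alone of these 4 genes passed.

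Among the roles, origin licensing genes had the median log2 difference nearest to 0, -0.38 over 8 genes, between -0.46 (Mcm2) and -0.26 (Mcm4). None of the 8 passed with or without knockout 5. Mcm5, a subunit of the MCM helicase whose promoter is printed above, had 4445, 7380.1, 6369 and 9039 normalized counts in controls against 4710.0, 5052, 2050.4, 5987 and 12020.0 in knockouts. Knockouts 1, 2 and 4 lay within the range of the controls, knockout 3 below it and knockout 5 above it. Mcm6, another subunit, had 11119.6 ± 2209.8 (SD, n = 4) in controls against 8997 ± 3623 (SD, n = 5) in knockouts (log2 difference -0.37, SE 0.27, limma adjusted p = 0.417). Of the remaining subunits, Mcm2 stood at -0.46, Mcm3 at -0.44, Mcm4 at -0.26 and Mcm7 at -0.32 in log2 difference. The loading factors Cdc6 and Cdt1 both stood at -0.39. As a share of the control mean, the 8 genes lay at 61.2% to 70.8% over knockouts 1 to 4, and at 133% (Mcm6) to 220.2% (Cdc6) in knockout 5.

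Clamp and nucleotide genes lay close to them, with a median of -0.45. Pcna, the sliding clamp of DNA polymerase, was among them (log2 difference -0.40, SE 0.28, limma adjusted p = 0.399). Rrm2, the S phase subunit of ribonucleotide reductase, had 5412, 7777, 7116 and 10460.5 normalized counts in controls against 4377, 4412, 1099, 6168 and 13296 in knockouts. Its lowest value was 14.3% of the control mean, in knockout 3, and its highest 173%, in knockout 5. Tyms, thymidylate synthase, had a log2 difference of -0.45 (SE 0.33, limma adjusted p = 0.419). Without knockout 5 Tyms was 1.67-fold lower (limma adjusted p = 0.0303), and none of the other 10 replication genes passed.

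**Figure D3:**
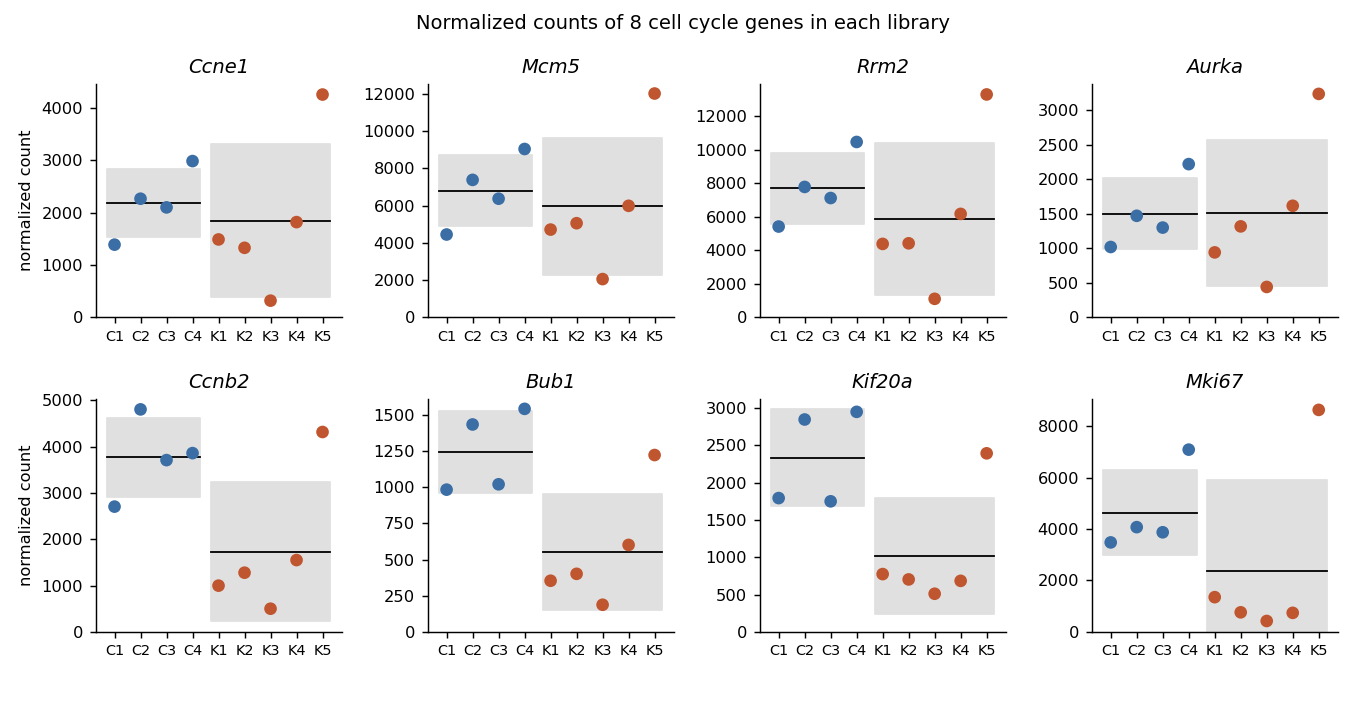
Each panel gives the normalized counts of 1 gene in the 9 libraries (C, control; K, knockout), with a line at the group mean and a grey band of 1 SD to each side, cut at 0. In the lower row (Ccnb2, Bub1, Kif20a and Mki67) K1 to K4 lie below every control, and in the upper row (Ccne1, Mcm5, Rrm2 and Aurka) at least 1 of them overlaps the controls.

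Cyclins, kinases and the transcription factor of G2 and mitosis had a median log2 difference of -0.80 over 8 genes. Ccnb2, cyclin B2, had 2705, 4806, 3710.1 and 3861 normalized counts in controls against 997, 1277, 499, 1549.8 and 4317 in knockouts. Knockouts 1 to 4 lay below every control, and knockout 5 lay within their range (log2 difference -1.47, SE 0.50, limma adjusted p = 0.0962). Without knockout 5, Ccnb2 was 3.7-fold lower (limma adjusted p = 0.0054). Ccnb1, cyclin B1, had 1718 ± 470.1 (SD, n = 4) in controls, 573 ± 184 (SD, n = 4) in knockouts 1 to 4 and 2657 in knockout 5, which lay above every control. Foxm1, the transcription factor of the mitosis genes, had 928, 1621, 1539.6 and 1599 in controls against 684, 809, 373, 697 and 1235 in knockouts (log2 difference -0.97, SE 0.33, limma adjusted p = 0.092). It was the only one of the 40 that knockout 5 held below the control mean on the log2 scale. Cdk1, the kinase of mitotic entry, was 2.25-fold lower without knockout 5 (limma adjusted p = 0.0478). Plk1, polo-like kinase 1, was 2.34-fold lower there (limma adjusted p = 0.0432).

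Aurka, the kinase of the spindle poles, had 1017, 1469, 1298 and 2218 normalized counts in controls against 939, 1316, 439, 1614 and 3234 in knockouts. The group means were 1501 ± 513 (SD, n = 4) and 1508 ± 1060.2 (SD, n = 5), closer than the spread in either group. The log2 difference of -0.23 (SE 0.49, limma adjusted p = 0.798) turned to 0.15 without knockout 3, and to 0.00652 with DESeq2. Aurkb, the kinase of the chromosomal passenger complex, and Ccna2, cyclin A2, passed neither with nor without knockout 5. Their log2 differences were -0.64 and -0.67 (limma adjusted p = 0.429 and 0.42).

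Kinetochore and spindle checkpoint genes had a median log2 difference of -1.18 over 6 genes. Cenpe, a kinesin that moves chromosomes to the spindle equator, had 1003, 1473, 969 and 1554 normalized counts in controls against 473, 319, 106, 197 and 1751 in knockouts. Knockouts 1 to 4 lay below, and knockout 5 above, every control (log2 difference -1.79, SE 0.67, limma adjusted p = 0.123). Bub1, a checkpoint kinase, had 984, 1435, 1021 and 1543 in controls against 353, 401, 187, 601 and 1223 in knockouts, and knockout 5 stood at 98.2% of the control mean (log2 difference -1.42, SE 0.47, limma adjusted p = 0.0856). Without knockout 5, limma passed Cenpe at 5.14-fold, Cenpf (a kinetochore protein of G2) at 3.5-fold, Bub1 at 3.43-fold and Ttk (the checkpoint kinase MPS1) at 2.81-fold lower. Birc5 (survivin) and Bub1b (a checkpoint protein) did not pass there (limma adjusted p = 0.0604 and 0.0679).

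The anaphase-promoting complex is the ubiquitin ligase that ends mitosis. Cdc20, its activator, had 3417 ± 1156 (SD, n = 4) normalized counts in controls, 1427 ± 544 (SD, n = 4) in knockouts 1 to 4 and 4999.7 in knockout 5. Without knockout 5 it was 2.47-fold lower (limma adjusted p = 0.0405). Ube2c, its ubiquitin-conjugating enzyme, had a log2 difference of -0.73 (limma adjusted p = 0.389) and did not pass without knockout 5 either (limma adjusted p = 0.101).

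Among spindle and midzone genes was Kif20a, a kinesin of cytokinesis and the gene of the 40 with the smallest limma adjusted p. It had 1794, 2849, 1751 and 2951 normalized counts in controls against 774, 703, 511, 684 and 2395 in knockouts. Knockouts 1 to 4 were close to each other and below every control, and knockout 5 lay near the control mean (log2 difference -1.41, SE 0.41, limma adjusted p = 0.0632). Without knockout 5 the log2 difference was -1.78 (limma adjusted p = 0.00124). Kif23, the kinesin of the central spindle, stood at -1.49 (SE 0.58, limma adjusted p = 0.133). Prc1, which bundles microtubules at the midzone, had 2190.1, 2544, 2482 and 3059 in controls, 1156, 1073, 558 and 954 in knockouts 1 to 4 and 4648 in knockout 5. Hmmr, a spindle protein, likewise had knockouts 1 to 4 below and knockout 5 above every control, and for Tpx2, an activator of Aurora A, knockout 5 lay within their range. Without knockout 5, limma passed Kif23 at 3.69-fold, Hmmr at 3.4-fold, Prc1 at 2.83-fold and Tpx2 at 2.72-fold lower. Kif11, the motor that separates the spindle poles, and Nusap1, a microtubule-binding protein, did not pass there (limma adjusted p = 0.14 and 0.296). Nusap1 varied little over the controls (1152 ± 79 (SD, n = 4)) and ranged from 201 to 2369.6 in knockouts.

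Mki67, whose protein Ki-67 coats mitotic chromosomes and is a common marker of dividing cells, had the largest log2 difference of the 40 in limma. It had 3480.4, 4075, 3875 and 7093 normalized counts in controls, 1349, 758, 421 and 738 in knockouts 1 to 4, and 8640.1 in knockout 5. Knockouts 1 to 4 averaged 17.6% of the control mean, and knockout 5 stood at 187%, above every control. The log2 difference was -1.86 (SE 0.74, limma adjusted p = 0.138) with all libraries. It was -0.97 with edgeR and -0.96 with DESeq2, where Kif23 had the largest of the 40 (-1.25 and -1.23). Without knockout 5 the limma value was -2.56 (SE 0.35, limma adjusted p = 0.00159), a 5.91-fold lower level. Top2a, the topoisomerase that untangles sister chromatids, had 4898 ± 922 (SD, n = 4) in controls against 2927 ± 1987 (SD, n = 5) in knockouts. It was 2.6-fold lower without knockout 5 (limma adjusted p = 0.0478).

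In knockouts 1 to 4 the mitosis genes stood further below the controls than the replication genes. The median of the 25 mitosis genes lay at -1.02, -0.87, -2.38 and -1.05 relative to the control mean on the log2 scale. The median of the 11 replication genes lay at -0.47, -0.56, -1.26 and -0.30 in the same libraries. The first median minus the second was -0.54, -0.31, -1.12 and -0.75 there, -0.076 in knockout 5, and between -0.075 and 0.15 in controls. Knockout 5 was thus near the lowest control, and knockouts 1 to 4 lay further out. Without knockout 5, 17 of the 25 mitosis genes and 1 of the 11 replication genes passed as lower, where 10.1% of all genes did. This split was drawn up after the values were seen, and the difference was not tested.

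**Figure D4:**
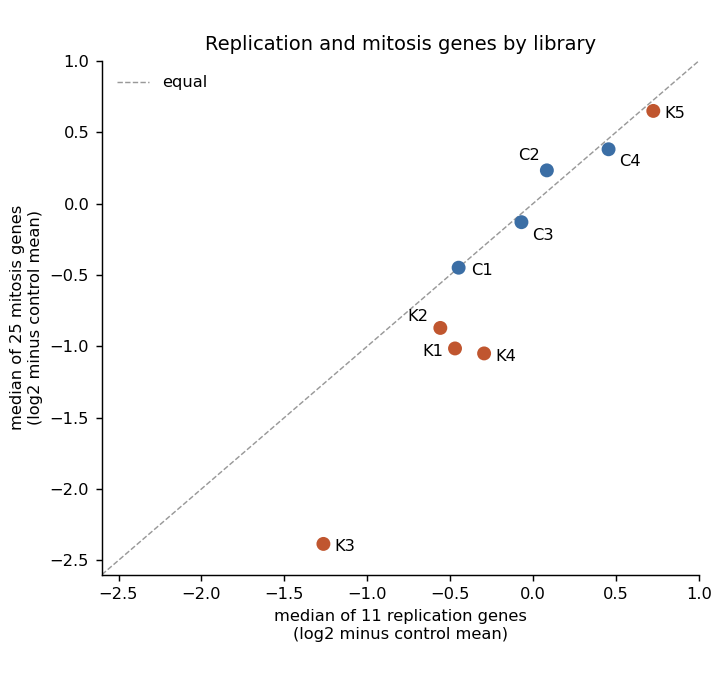
Each point is 1 library (C, control; K, knockout), at the median of the 11 replication genes (x) and of the 25 mitosis genes (y), both as log2 minus the control mean, and the dashed line marks equal values. The controls and K5 lie near the line, and K1 to K4 lie below it, K3 at -1.26 and -2.38.

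A list of 132 further cell cycle genes, all of them tested, had a smaller median log2 difference of -0.41. In limma 1 was higher and none was lower, and 23 had an unadjusted p under 0.05, 15 of them lower, where 12.2% of all genes were. With DESeq2, 4 passed (Wee1, Cdkn1b and Pttg1 higher, Cdk6 lower), where 16.5% of all genes did. The gene that rose was Wee1, the kinase that holds back Cdk1, with 762, 946, 1158 and 1186 normalized counts in controls against 1689, 1665, 1757, 1408 and 1923 in knockouts. Every knockout, the fifth included, lay above every control (1.68-fold, limma adjusted p = 0.0329). The call was lost on leaving out any 1 library other than knockout 5.

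Without knockout 5, 34 of the 132 were lower and 5 higher, where 10.1% and 12.4% of all genes were. Among the lower ones were 13 of 27 spindle and cytokinesis genes, 6 of 27 kinetochore, cohesin and condensin genes, 6 of 36 origin and replisome genes, and 5 of 16 genes of the RB family, E2F and DREAM. With all libraries, the median log2 difference was -1.02 for spindle and cytokinesis, -0.60 for kinetochore, cohesin and condensin, and -0.23 for origin and replisome genes. For 13 genes of the G2/M switch and checkpoint kinases it was -0.16, nearer 0 than for origin and replisome genes. Of these 13 genes, 2 were lower without knockout 5. Of the lower genes, none of which passed in limma, those with the smallest p were Cdk6, Cdkn2a and Spag5. Cdk6, a G1 kinase, had 816, 917, 787 and 885 in controls against 295, 458, 462, 373 and 692 in knockouts, with no overlap (log2 difference -0.95, limma adjusted p = 0.0524, DESeq2 adjusted p = 0.0118). Spag5, a spindle protein, had 762, 1898, 771 and 1534 against 321, 176, 64.4, 217 and 1166 (limma adjusted p = 0.0823). Cdkn2a, an inhibitor of G1 kinases, had 18.9, 41.4, 32.3 and 37.7 against 0, 0, 1.36, 0 and 31.7 (limma adjusted p = 0.0817).

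Regulators of G1 had medians nearer 0, at -0.093 for 6 D cyclins and G1 kinases and 0.043 for 7 inhibitors of cyclin-dependent kinases. Cdkn1b, the inhibitor p27, had 282, 316, 495 and 401 in controls, 942, 1249, 906 and 999 in knockouts 1 to 4, and 377 in knockout 5 (limma adjusted p = 0.0675). Without knockout 5 Cdkn1b was 2.78-fold higher (limma adjusted p = 0.00306). Cdkn1a, the inhibitor p21, had a log2 difference of 0.25 (limma adjusted p = 0.247), and Ccnd1, cyclin D1, one of 0.013 (limma adjusted p = 0.986).

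In its sum, a list of red cell precursor markers had the same lowest and highest libraries as these genes. The 10 measured genes of this erythroid list summed to 26283, 28839, 48528 and 47068 normalized counts in controls against 13352, 12287, 4293, 20124 and 62045 in knockouts. Knockout 3 was lowest and knockout 5 highest, and none of the 10 passed the test. All 10 had their lowest value in knockout 3, 5 had their highest in knockout 5 and 5 in a control. Hba-a1, an alpha globin, was among the latter, with 65.8 in knockout 3, 6729 in knockout 5 and 2229 to 7427 in controls. Klf1, a red cell transcription factor, had 1152 in knockout 3 and 8262 in knockout 5, against 2940.0 to 6048 in controls. No gene of the list was at 0 in a whole group. A list of 13 chondrocyte genes, of which 8 fell, summed to 2001235 to 4765865 in controls, 164994 to 445319 in knockouts 1 to 4 and 1286153 in knockout 5. The part of these cells in the cell cycle differences was not tested.

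The neutrophil and myeloid precursor list and the macrophage list were lowest in knockout 3 too, but highest in knockout 2. The former summed to 137882, 590241, 232571 and 128880.5 in controls against 100674, 760304, 48261, 99278 and 101752 in knockouts. The latter summed to 28919, 64335, 43467 and 28430.2 in controls against 8164, 114578, 5060.2, 10552 and 17219 in knockouts. Endothelial genes stood at 124074 and 150583 in controls 1 and 3, and between 5520.1 and 11075 in the other 7 libraries, and 2 of the 9 genes fell. The 8 muscle fibre and 5 satellite cell genes all rose, with sums of 59251 to 568691 and 3277 to 21505 in knockouts, against at most 1534 and 520.1 in controls. The B lineage list ranged from 4561 to 9336 over all libraries, of which Ebf1 alone made up 3506 to 6023. Of its 8 genes, 5 had their lowest value in knockout 3, 1 of them tied with knockout 5 at 0. Cd79a, a part of the B cell receptor, had 72.5 in knockout 3 and 1493 in knockout 2, against 187 to 867 in controls.

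**Figure D5:**
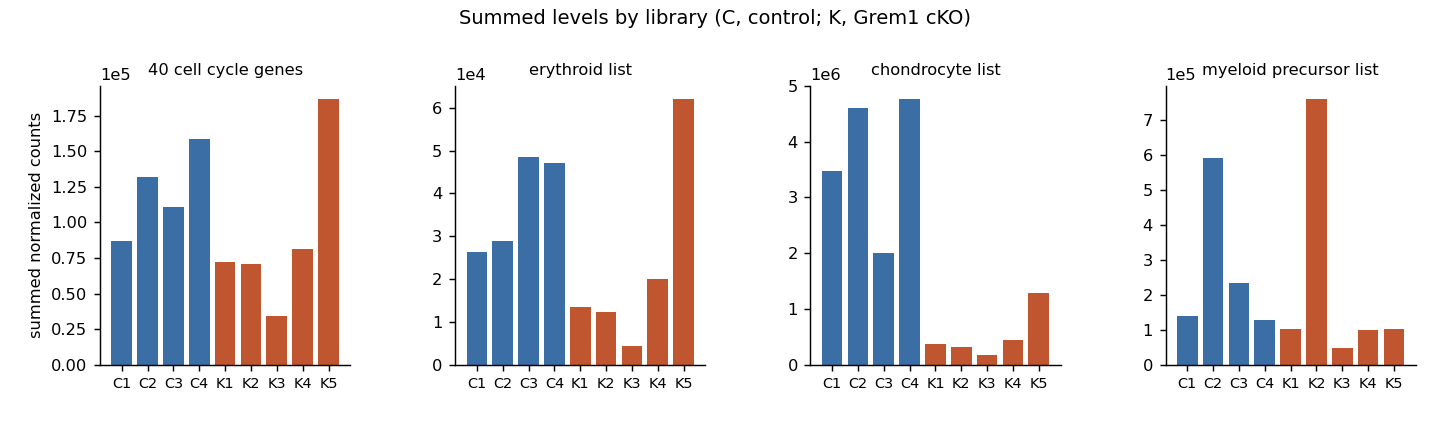
Bars are summed normalized counts per library (C, control; K, knockout) of the 40 cell cycle genes and of 3 marker lists, each on its own axis from 0. The cell cycle and erythroid bars are both lowest in K3 (34300.4 and 4293) and highest in K5 (186688 and 62045).

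In the authors' deposited table, which holds their own comparison, 39 of the 40 genes had a negative log2 fold change, the lowest -1.23 for Kif23, and Aurka had 0.00704. Of 3401 genes with a limma log2 difference (knockout minus control) past 1 in size, 97.2% had the same sign in the authors' deposited table. None of the 40 had an adjusted p under 0.05 in the authors' deposited table, where 17.1% of the genes with an adjusted p had. The smallest in the authors' deposited table were 0.0519 for Foxm1 and 0.0525 for Kif20a. For Mki67 and Prc1 the authors' deposited table lists no p-value, and DESeq2 on the recovered reads gave none for the same genes.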

How the data were processed

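Polyadenylated RNA of sorted cells was sequenced in 9 libraries (4 control, 5 knockout), grouped and numbered by their titles. The matrix the authors deposited holds normalized counts, a signal in which counts are divided by a size factor. A second table holds the authors' comparison, and per the file headers its columns are a mean signal, a log2 fold change, a standard error and test statistic (score), and p-values. The submitters' processing notes list STAR, featureCounts, DESeq2 and mm39. Versions, annotation and strand setting: not given in the sources used here.

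Dividing by a library's smallest value above 0 gave whole reads for at least 99.99% of values (tolerance 0.01 read). NCBI's GRCm38.p6 table gave symbols for 25275 of 27179 Entrez IDs, and promoter coordinates are of that build. Genes were tested with limma 3.58.1 (R 4.3.3; eBayes with trend, two-sided) on log2(normalized count + 1), which understates changes of low genes. A gene needed 10 normalized counts in 4 or more libraries, which left 15832, and fits on fewer libraries kept these genes. edgeR 4.0.16 (786 genes called) and DESeq2 1.42.0 (2546 called) on recovered reads, other pseudocounts, filters and scalings, a replicate block, quality weights, thinning and leaving out libraries were alternatives. The limma step was tested on simulated counts.

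The 40 genes and all lists (132 further cell cycle genes, 14 marker lists with 112 of 113 genes in the matrix) were chosen with earlier results of these data known. Named are the 40, Grem1, up to 6 passing genes of the further list per direction or else the 3 of smallest p, up to 3 leading genes per marker list, the 10 genes most correlated with the 40, and the promoters with most matches. Pttg1, Cdkn1b, Cdkn1a, Ccnd1, Ebf1, Des, Cspg4, Mcam, the Ccnb2 promoter and the choice among promoters with equal matches came after values were seen. Some genes these rules select are not reported here. Sums of the remaining marker lists in controls and knockouts were 90243 to 336178 and 79271 to 174582 for LEPR stroma (1 gene higher), 403931 to 533552 and 221523 to 619941 for osteoblast, 437 to 1757 and 251 to 2569 for T and NK, 1755 to 5514 and 717 to 1745 for mast cell (Mcpt4, Cma1 and Tpsb2 at 0 throughout, Ms4a2 at 0 in knockouts), 3130.0 to 8581 and 15633 to 44724 for Schwann and 97375 to 137818 and 76713 to 99968 for smooth muscle and pericyte genes. In limma, 5 of 6 Schwann genes passed as higher and 1 mast cell gene, Kit, as lower. Kit made up most of the mast cell sum in every library (1652 to 5017 in controls, 717 to 1571 in knockouts), so that sum mainly follows Kit. Of the smooth muscle and pericyte genes, Des passed as higher (log2 difference 2.77), and Cspg4 (-1.23) and Mcam (-1.61) as lower. No osteoblast or T and NK gene passed.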

Additional observations from a re-analysis of the deposited data

Results flagged for a closer look

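Within 80 groups of log2 values (40 genes in controls and in knockouts), 4 held 1 library far from the rest by Dixon's test. The test was not run on the normalized counts themselves, which are printed here. All groups come from the same 9 libraries and are not independent, so the number flagged was not weighed against chance. Control 1 stood below the other 3 controls for Pcna (2410 normalized counts), Foxm1 (928) and Ttk (262). It was also the control with the lowest median over the 40 genes. Kif20a in knockout 5 (2395) stood above the other 4 knockouts. Knockout 5 had the highest value of all libraries for 29 of the 40 genes, and none of these was flagged for it on the log2 scale.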

How the results depend on the processing

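No gene of the 40 passed under other pseudocounts, filters or scalings, with edgeR or DESeq2, after thinning, without controls 1 and 3, or without any 1 library except knockout 5. The median over the 40 was -0.49 with edgeR and -0.47 with DESeq2. Leaving out 1 library passed 0 to 19 of the 40, with medians of -1.16 to -0.35. Quality weights passed 15 of the 40, 37 of the further cell cycle genes and 4056 of all genes. The replicate block, which adds the replicate number as a term, passed 15, 38 and 2715. Knockout 5 shares its number with no control and carries no weight in that comparison. Deviations of same-numbered libraries correlated by -0.011 to 0.07, and no control correlated best with its own number, so the numbers were not taken to pair libraries. Of all genes, 1184 passed with limma, 786 with edgeR, 2546 with DESeq2, 338 without controls 1 and 3, 83 for knockout 5 against controls, and 377 to 3562 without 1 library. Of the further cell cycle genes, 2 passed with a filter of 50, 4 with DESeq2, 0 without controls 1 and 3, 0 for knockout 5 against controls, and 0 to 39 without 1 library. Their median was 0.49 for knockout 5 against controls. The higher share of limma calls was 61.7% and moved by under 10 points with scaling. Grem1 lost its call without controls 1 and 3 (-2.36, limma adjusted p = 0.0934) and for knockout 5 alone (-3.16, limma adjusted p = 0.153). Its other limma alternatives gave adjusted p = 0.00186 to 0.0302. Leaving out 1 library moved Cdc6 between -0.81 and 0.12, Aurka between -0.57 and 0.15, and Nusap1 between -0.78 and 0.11, each above 0 without knockout 3. Aurka was 0.00652 with DESeq2. For knockout 5 against controls the median over the 40 was 0.68, and the log2 differences above 0 were Bub1 0.0026, Kif20a 0.079, Kif23 0.083, Ccne2 0.10, Ccnb2 0.22, Top2a 0.33, Pcna 0.42, Mcm6 0.43, Mcm3 0.48, Cenpe 0.52, Cenpf 0.55, Ccna2 0.56, E2f1 0.57, Tpx2 0.58, Mcm4 0.58, Aurkb 0.59, Cdc20 0.62, Birc5 0.65, Ccnb1 0.67, Mcm7 0.70, Ube2c 0.70, Cdk1 0.71, Tyms 0.73, Mcm2 0.74, Kif11 0.79, Hmmr 0.81, Cdt1 0.82, Plk1 0.82, Rrm2 0.83, Prc1 0.87, Mcm5 0.87, Ttk 0.87, Bub1b 0.95, Mki67 0.96, Mybl2 1.01, Ccne1 1.01, Nusap1 1.04, Aurka 1.17, Cdc6 1.28. The cause of these changes was not tested.

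None of the 40 had under 78.7 normalized counts in a library. In counts simulated for this comparison over 15283 genes, limma recovered 51.6% of genes changed by 1.5 and 75.5% of those changed by 3 on the log2 scale.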

Other observations

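Outside both cell cycle lists, the 10 genes whose log2 values followed the mean of the 40 most closely included Itga4, Atad2, Nup210, Myo7a, Armc9, Tnfrsf14, Hmgb3, Pkhd1l1 and H2ac24. Pearson's r over the 9 libraries lay between 0.97 and 0.99, as a description of libraries that differ in depth and marker levels. None of the 10 passed the test between groups (limma adjusted p = 0.15 to 0.435). Itga4, an integrin subunit, had its lowest value, 155, in knockout 3 and its highest, 1831, in knockout 5. H2ac24, a histone gene, had 129.7 to 232 in controls, 2.71 to 26.2 in knockouts 1 to 4 and 361 in knockout 5.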
